A study of Mus musculus with 16 samples.

Results

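MHC class I heavy chains, their common light chain B2m and the class I transactivator Nlrc5 were followed in primary mouse astrocytes with and without NLRX1. The genes were taken from the log2 CPM table (log2 of counts scaled to library size) by symbol: H2-D1, H2-K1, H2-T22, H2-T23, H2-Q4, H2-Q6, H2-Q7, H2-M3, B2m and Nlrc5. All 10 were present, among 16707 genes in all, so 8 heavy chains, the light chain and the transactivator were measured in every library.

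A class I molecule is a heavy chain with a peptide in its groove, held at the cell surface by beta-2-microglobulin, the product of B2m. H2-K1 and H2-D1 encode the classical chains of the b haplotype, which present peptides to CD8+ T cells, while the genes of the Q, T and M regions encode non-classical chains with more limited polymorphism. IFNγ induces the transcription factor IRF1, and NLRC5, a member of the same NLR family as NLRX1, binds no DNA by itself but docks on factors at the X and Y boxes of class I promoters. In the healthy brain parenchyma class I is sparse, and astrocytes are known to raise it when exposed to IFNγ.

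The cells came from P6 C57BL/6J pups, selected with ACSA-2 beads (an astrocyte surface antigen) and grown in serum-free medium. There were 4 WT litters and 4 litters labelled NLRX1-/-, called KO here, in which the gene is lost from every cell and not from astrocytes alone. Each litter gave a culture treated with vehicle and another treated with LPS at 500 ng/mL plus IFNγ at 10 ng/mL, both for 24 h. This made 4 groups of 4 and 16 libraries. The vehicle is water in the study's methods, but phosphate buffered saline in a figure legend. The 2 agents were always given together, so the part of each in a response cannot be told apart. The pups' age is P6 in the labels and methods, but a newborn age stands in the study's results text.

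The libraries held 27259420 to 43752903 read pairs assigned by Salmon (median 35554625). Nlrx1 lay between 4.08 and 4.44 log2 CPM in the 8 WT libraries and between 1.09 and 2.96 in the 8 KO libraries, so the labels held although reads of the gene remained. All 10 astrocyte markers listed were in the table, with a summed level of 5386 to 10848 CPM, and 12 of 15 microglia and macrophage markers, Aif1, Cx3cr1 and Ptprc among them, were filtered out as too low, with at most 20 read pairs in any library. The remaining 3 summed to between 27.9 and 49.0 CPM. KO litters 2 and 4 stood apart from the rest: in vehicle, Mbp, the myelin basic protein gene, was at 2.49 and 3.0 log2 CPM there and between 5.93 and 7.84 in the other 6 litters. For the differences between genotypes in level and in response, values of several genes are given below with and without these litters. TPM levels, ratios, shares and correlations are given only with them. In such bulk libraries, fewer cells of a type and less RNA per cell cannot be told apart.

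Promoters are shown for 4 genes: the 2 classical chains, the light chain and H2-T23. H2-T23 has the largest response among the heavy chains with at least 96 read pairs in every library. That limit is the lowest count of H2-T23 itself, and it leaves out H2-Q6, whose mean response was larger in both genotypes. Among the letters marked are those through which IFNγ and NLRC5 are known to reach class I genes, of which H2-T23 has only a part. The sequences are RefSeq promoters, 250 bases before to 50 after a start site, and each was found exactly once in GRCm39. H2-K1 lies at chr17:34219272-34219571 on the minus strand, H2-D1 at chr17:35481820-35482119 on the plus strand, H2-T23 at chr17:36343544-36343843 on the minus strand and B2m at chr2:121977918-121978217 on the plus strand. The windows of H2-K1 and B2m span the start of the protein-coding gene in GENCODE M39, whereas the RefSeq start sites of H2-D1 and H2-T23 lie 379 and 1978 bases downstream of it, with 7 of 20 and 17 of 19 annotated transcripts starting in the window. Capitals mark matches, on either strand, to GAAANNGAA or GAANNGAAA (forms of the interferon-stimulated response element, ISRE), GGGNNTTCC (κB-like), TGACG or TGATGAC (X2 box, the CREB and ATF element) and ATTGG (Y box, the NF-Y element).
H2-K1: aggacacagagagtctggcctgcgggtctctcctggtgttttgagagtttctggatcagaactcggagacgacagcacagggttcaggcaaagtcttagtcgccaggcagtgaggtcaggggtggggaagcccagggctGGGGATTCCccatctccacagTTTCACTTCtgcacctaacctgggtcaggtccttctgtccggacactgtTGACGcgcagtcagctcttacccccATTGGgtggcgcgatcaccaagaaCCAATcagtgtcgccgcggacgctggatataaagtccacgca
H2-D1: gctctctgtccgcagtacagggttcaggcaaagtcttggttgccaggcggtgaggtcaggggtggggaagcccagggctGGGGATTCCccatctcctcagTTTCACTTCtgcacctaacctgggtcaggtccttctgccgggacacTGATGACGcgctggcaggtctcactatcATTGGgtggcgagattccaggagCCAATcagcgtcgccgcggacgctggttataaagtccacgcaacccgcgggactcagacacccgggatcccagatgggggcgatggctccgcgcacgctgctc
H2-T23: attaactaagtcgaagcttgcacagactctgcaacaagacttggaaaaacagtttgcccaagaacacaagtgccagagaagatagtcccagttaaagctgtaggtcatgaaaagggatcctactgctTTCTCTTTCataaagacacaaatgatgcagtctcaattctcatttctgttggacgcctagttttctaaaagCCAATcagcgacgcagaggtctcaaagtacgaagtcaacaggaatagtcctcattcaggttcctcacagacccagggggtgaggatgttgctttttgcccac
B2m: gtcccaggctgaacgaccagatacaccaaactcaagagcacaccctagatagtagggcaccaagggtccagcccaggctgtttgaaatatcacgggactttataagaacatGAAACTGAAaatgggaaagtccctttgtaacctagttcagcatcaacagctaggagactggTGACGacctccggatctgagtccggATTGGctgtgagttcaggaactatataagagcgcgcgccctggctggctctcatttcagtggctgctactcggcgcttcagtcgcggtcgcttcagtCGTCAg

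Of the 10 genes, 9 had a promoter entry in RefSeq (GRCm38.p6 table), all but Nlrc5. The motif letters were chosen with these promoters in view, so the shares below describe the windows and are not a test. Counts of the 9 are of genes, and the percentages are of promoter entries. An ISRE-like match in either form was present in 9 of these 9, against 14.8% of all 32851 promoters of that length, and a Y box was present in 9 of 9, against 37.4%. The κB-like letters occurred in H2-K1, H2-D1, H2-Q4, H2-Q6 and H2-Q7, 5 of 9, against 5.82% of all promoters. TGACG occurred in 7 of 9, all but H2-Q6 and H2-T23, against 20.8%, and TGATGAC, which overlaps it where a G follows, in 6 of 9, against 3.23%.

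The classical and Q-region genes shared more than the letters. From the first base of the κB-like match to that of the ISRE-like match there were 21 bases in H2-K1, H2-D1 and H2-Q6 and 20 in H2-Q4 and H2-Q7, and from there to the next forward Y box 74 bases in H2-K1, H2-D1 and H2-Q4 and 73 in H2-Q6 and H2-Q7. B2m, H2-T22 and H2-M3 had the second interval at 86, 102 and 80 bases and no κB-like match in the window. H2-T23 had an ISRE-like match and a reversed Y box only. These are matches of letters, not measured binding, and the windows of H2-Q6 and H2-Q7 each occurred at 2 places in the chromosomes searched.

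To compare the genes with each other, levels were taken per transcript length, as TPM (transcripts scaled to their length and to a fixed total). In WT vehicle, B2m was the most abundant at 548 ± 42.5 TPM (SD, n = 4), followed by H2-K1 at 95.6 ± 13.7, H2-D1 at 74.3 ± 6.76, H2-T22 at 38.3 ± 1.25, H2-Q4 at 17.2 ± 2.90 and H2-T23 at 6.78 ± 1.15. None of these neighbours overlapped between litters. H2-Q7 at 2.29 ± 1.40, H2-M3 at 1.80 ± 0.389 and Nlrc5 at 1.20 ± 0.134 overlapped with their neighbours in that order, and H2-Q6 came last at 0.495 ± 0.300. Unstimulated astrocytes thus held the light chain and the classical chains as clear transcripts and the transactivator near 1 TPM.

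After LPS + IFNγ in WT the order was B2m at 9006 ± 1058 TPM, H2-K1 at 3414 ± 348, H2-D1 at 2280 ± 227, H2-T23 at 1368 ± 297, H2-Q4 at 1025 ± 95.5, H2-T22 at 496 ± 72.3, H2-Q7 at 293 ± 40.5, H2-Q6 at 114 ± 16.1, Nlrc5 at 86.0 ± 13 and H2-M3 at 76.8 ± 4.87. H2-T23 overlapped with H2-Q4, and H2-Q6, Nlrc5 and H2-M3 overlapped as neighbours, whereas the other neighbours were separate. H2-T23, which encodes the Qa-1 heavy chain, a ligand of the NKG2A receptor of natural killer cells, moved from place 6 to place 4, and H2-T22, a ligand of γδ T cells, moved from place 4 to place 6. In KO the order after LPS + IFNγ was the same, led by B2m at 9046 ± 340 TPM, H2-K1 at 3232 ± 197 and H2-D1 at 2277 ± 167.

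Together the 10 genes took 0.0786% ± 0.00530 of all TPM in WT vehicle and 1.82% ± 0.200 after LPS + IFNγ, and in KO 0.0847% ± 0.00841 and 1.80% ± 0.115 (SD, n = 4 each). The balance of light to heavy chains moved as well. Per unit of summed heavy chain TPM there were 2.32 ± 0.172 units of B2m in WT vehicle and 0.996 ± 0.0797 after LPS + IFNγ, with no overlap between the groups, since the lowest vehicle ratio was 2.07 and the highest treated one 1.09. In KO the ratio was 1.73 ± 0.369 in vehicle, from 1.37 to 2.23, and 1.02 ± 0.0823 after treatment, from 0.915 to 1.09.

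Within the heavy chains, H2-K1 and H2-D1 together made up 71.7% ± 1.76 of TPM in WT vehicle and 62.9% ± 1.21 after LPS + IFNγ. The share of H2-T23 went from 2.86% ± 0.440 to 14.9% ± 1.7 and that of H2-T22 from 16.2% ± 1.19 to 5.46% ± 0.262. In KO the classical share was 72.9% ± 2.36 in vehicle and 62.0% ± 2.24 after treatment, and that of H2-T23 2.65% ± 0.396 and 13.8% ± 1.02. No share of these overlapped between vehicle and treated libraries of a genotype.

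**Figure D1:**
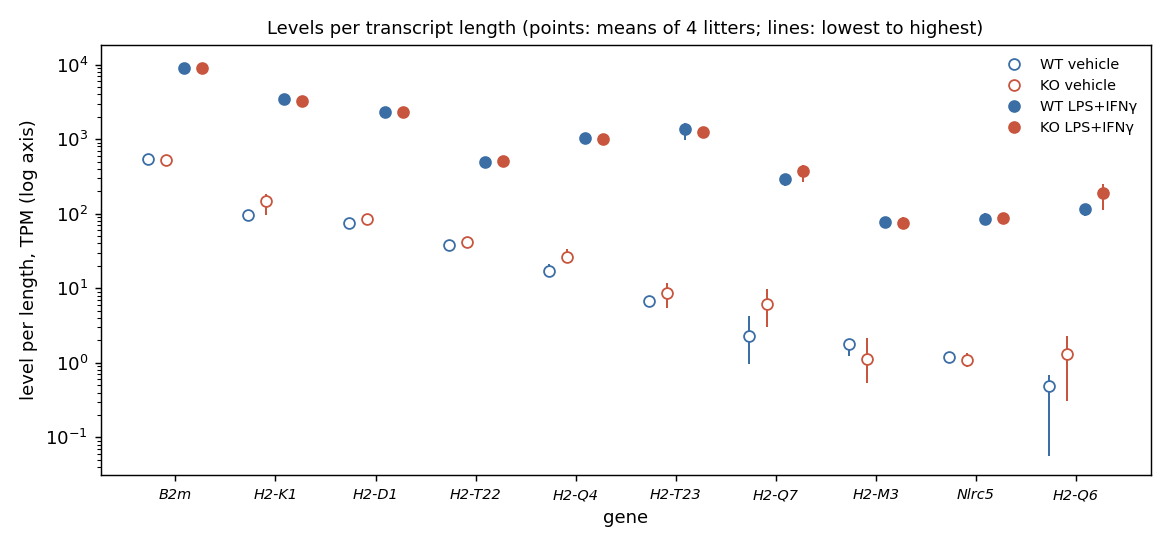
Level per transcript length (TPM, log axis) of the 10 genes in the 4 groups, as the mean of 4 litters (points) with lines from the lowest to the highest litter, open for vehicle and filled for LPS + IFNγ. B2m led in every group, and H2-T23 passed H2-T22 and stood beside H2-Q4 after treatment.

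From here levels are in log2 CPM, in which values of the same gene are compared between libraries, and values are listed in the order of litters 1 to 4. H2-K1 was at 6.18, 6.30, 5.90 and 5.88 in WT vehicle and at 11.18, 11.56, 11.47 and 11.57 after LPS + IFNγ. In KO it was at 6.49, 7.10, 6.15 and 7.07 in vehicle and at 11.30, 11.50, 11.26 and 11.52 after treatment. Treated libraries lay far above all vehicle libraries, and among the latter KO litters 2 and 4 were the highest. The response was 5.38 (SE 0.12) in WT, a 41.8-fold rise, and 4.69 (SE 0.12) in KO, a 25.9-fold rise (limma, adjusted p = 5.58e-12 and 2.32e-11).

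H2-D1 was at 5.63, 5.92, 5.70 and 5.91 in WT vehicle and at 10.73, 11.04, 10.91 and 11.10 after treatment. In KO it was at 5.88, 6.03, 5.97 and 6.26 in vehicle and at 10.87, 11.08, 10.81 and 11.11 after treatment. It rose by 5.16 (SE 0.05) in WT and 4.93 (SE 0.05) in KO (limma, adjusted p = 4.42e-15 and 7.44e-15), the tightest responses of the 10. Within litters they were 5.10, 5.13, 5.22 and 5.19 in WT and 4.99, 5.05, 4.84 and 4.85 in KO, and the genotypes did not overlap. Among all genes, 8.31% had responses that did not overlap between genotypes in either direction.

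B2m was at 6.90, 7.20, 6.99 and 7.06 in WT vehicle, at 6.95, 6.93, 7.11 and 7.21 in KO vehicle, and between 11.12 and 11.45 in the 8 treated libraries. Its response was 4.25 (SE 0.07) in WT, a 19.1-fold rise, and 4.27 (SE 0.07) in KO, a 19.4-fold rise (limma, adjusted p = 2.57e-13 and 2.47e-13). Of the 10 genes only H2-T22, at 3.90 (SE 0.09) and 3.78 (SE 0.09), responded less on this scale. B2m overlaps the protein-coding gene Patl2 on the opposite strand over its whole length of 5638 bases in GENCODE M39, and the libraries hold no strand, although Salmon counts on spliced transcripts.

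Nlrc5 was at 1.96, 2.10, 2.19 and 2.36 in WT vehicle, at 1.94, 1.81, 2.22 and 2.38 in KO vehicle, and between 8.35 and 8.75 in all treated libraries. The genotypes overlapped in both conditions. The transactivator rose by 6.36 (SE 0.10) in WT and 6.48 (SE 0.10) in KO, 82.1- and 89.3-fold (limma, adjusted p = 3.06e-13 and 2.73e-13). Between 117 and 226 read pairs stood behind a vehicle value and between 9176 and 14856 behind a treated one.

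H2-Q4 was at 4.05, 3.73, 3.62 and 3.57 in WT vehicle and at 4.35, 4.28, 4.15 and 4.79 in KO vehicle, so every KO litter lay above every WT litter. After LPS + IFNγ it was between 9.66 and 10.00 in WT and between 9.68 and 10.03 in KO. The response was 6.12 (SE 0.11) in WT and 5.47 (SE 0.11) in KO (limma, adjusted p = 9.09e-13 and 2.42e-12). H2-T23 was at 1.65, 2.10, 1.64 and 2.08 in WT vehicle and at 2.00, 2.52, 1.61 and 2.73 in KO vehicle. It reached 9.19 to 10.01 in WT and 9.34 to 9.87 in KO, a rise of 7.84 (SE 0.10) and 7.38 (SE 0.10), or 230- and 167-fold (limma, adjusted p = 5.06e-14 and 8.44e-14). Among the heavy chains with at least 96 read pairs in every library, a limit set by H2-T23's own lowest count, H2-T23 had the lowest TPM in vehicle. H2-Q7, H2-M3 and H2-Q6, with fewer read pairs, were lower in mean TPM. After treatment the mean TPM of H2-T23 lay below H2-K1 and H2-D1, and above H2-Q4, with which it overlapped, and H2-T22.

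H2-Q6 and H2-Q7 encode chains of the GPI-linked Qa-2 antigen, and with H2-Q9 they are nearly identical, so Salmon's split of reads among them is uncertain. H2-Q7 was at 1.01, -0.97, -0.18 and 0.10 in WT vehicle, at 1.04, 2.29, 0.62 and 1.95 in KO vehicle, and between 7.02 and 8.03 after treatment, with responses of 7.32 (SE 0.25) and 6.21 (SE 0.25) in WT and KO (limma, adjusted p = 4.59e-10 and 2.28e-09). H2-Q6 was at -0.54, -0.48, -0.81 and -3.17 in WT vehicle and at 0.08, 0.78, -1.50 and 1.22 in KO vehicle, and rose by 8.20 (SE 0.40) and 7.51 (SE 0.40) (limma, adjusted p = 1.10e-08 and 2.39e-08). The value of -3.17 in WT litter 4 rests on 2 read pairs, against 5197 after treatment, which is a ratio of 2600 with an exact 95% interval from counting error alone of 719 to 21476. Summed in CPM, H2-Q6, H2-Q7 and H2-Q9 rose by 7.62 ± 0.863 in WT and 6.51 ± 0.287 in KO (SD, n = 4), from 1.07 to 4.04 CPM in WT vehicle and 3.19 to 9.73 in KO vehicle. After treatment the sum was between 351 and 466 CPM in WT and between 372 and 746 in KO.

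H2-M3, which presents N-formylated peptides, was at 0.20, 0.35, 0.32 and -0.35 in WT vehicle and at -0.53, -0.87, -0.99 and 0.47 in KO vehicle, with 12 to 57 read pairs each. After treatment it lay between 5.51 and 6.02 in all 8 libraries. The response was 5.61 (SE 0.19) in WT and 6.22 (SE 0.19) in KO (limma, adjusted p = 4.45e-10 and 1.67e-10). H2-T22 was the steadiest in vehicle, from 4.77 to 4.90 in WT and from 4.89 to 5.13 in KO, and lay between 8.48 and 9.05 after treatment. Its rise of 15-fold in WT and 13.8-fold in KO was the smallest (limma, adjusted p = 1.03e-11 and 1.54e-11).

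**Figure D2:**
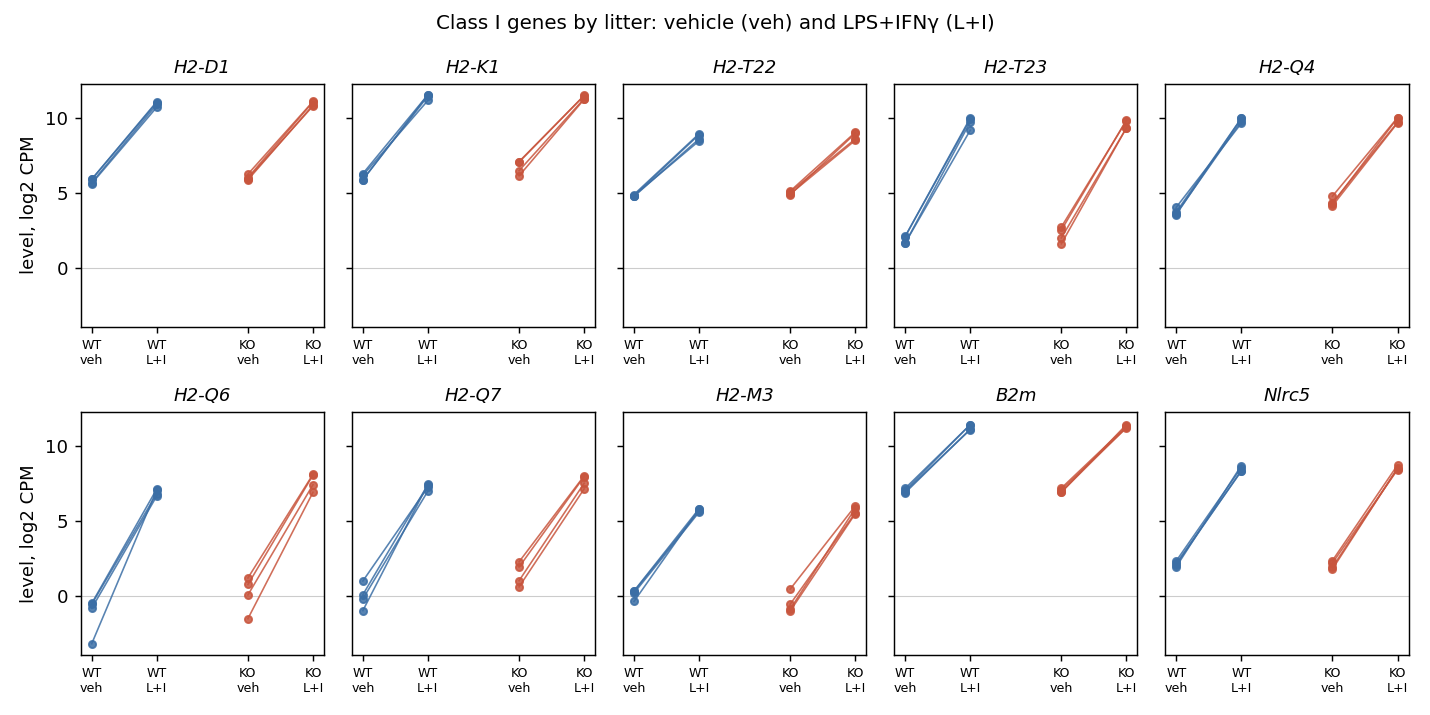
Level (log2 CPM) of each gene in every library, with a line joining the vehicle (veh) and LPS + IFNγ (L+I) libraries of a litter, WT in blue and KO in red. Every line rises, vehicle levels of H2-Q6 and H2-Q7 are the most spread, and the lowest point is H2-Q6 in WT litter 4 at -3.17.

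Thus all 10 genes rose in WT, where 24.9% of the 16707 genes were called higher, and all 10 rose in KO, where 26.6% were. Their median response was 5.87 in WT and 5.84 in KO, beside medians over all genes of -0.02 and -0.02. By mean response in WT, H2-Q6 stood at place 42 from the top of all genes and H2-T23 at place 52, and H2-T22 was the last of the 10 at place 202. The place of H2-Q6 rests partly on WT litter 4, whose response of 10.28 starts from 2 read pairs in vehicle. With single litters left out, the WT response of H2-Q6 ran from 7.51 to 8.47 and that of H2-T23 from 7.76 to 7.94. All 10 were also called higher in each genotype under every alternative tried, from edgeR on summed counts to each litter left out and KO litters 2 and 4 left out. Scaling moves the zero point: with each library divided by its summed CPM, the median over all genes became -0.18 in WT and -0.20 in KO, and with library medians set equal -0.10 in both. The calls over all genes were then 2590 higher and 6070 lower, or 3261 and 4774, in WT, against 4154 and 3656 as deposited, and in KO 2830 and 6570, or 3659 and 5177, against 4448 and 4256. The lowest response of a class I gene under any alternative was 3.56, for H2-T22 in KO without KO litters 2 and 4.

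**Figure D3:**
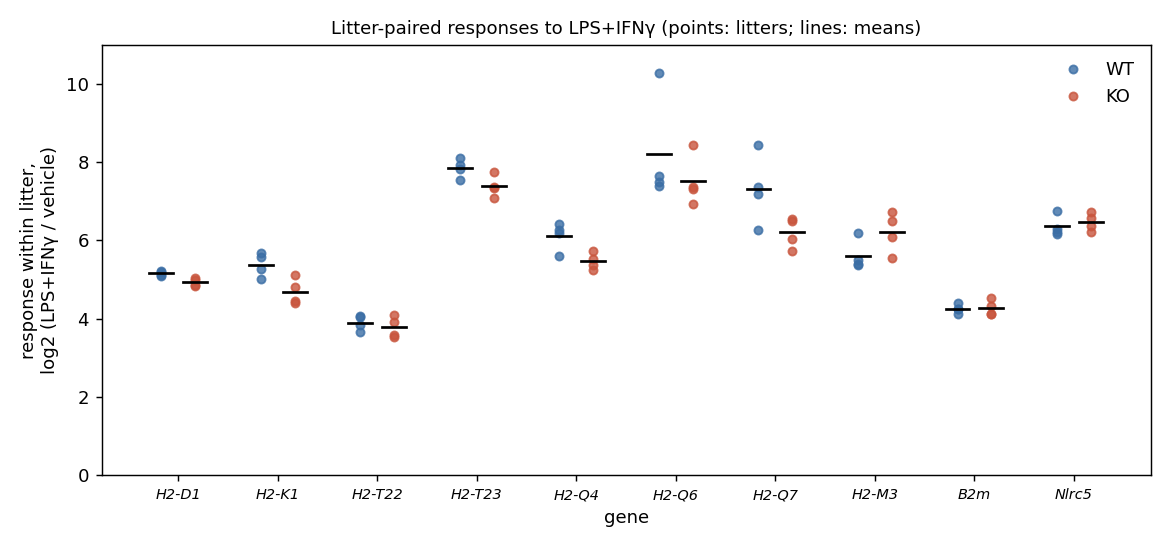
Response within each litter, as log2 of LPS + IFNγ over vehicle, for WT (blue) and KO (red), with lines at the means of 4 litters. Responses run from 3.53 for H2-T22 in KO litter 1 to 10.28 for H2-Q6 in WT litter 4, and H2-D1 is the gene whose genotypes do not overlap.

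The genes that supply and load peptides moved in the same direction: 14 of 14 rose in both genotypes, with a median of 3.48 in WT and 3.53 in KO. The largest responses in WT were those of the immunoproteasome subunits Psmb9, at 8.04 (SE 0.12), and Psmb8, at 7.93 (SE 0.16), of Tap1, a subunit of the peptide transporter, at 6.31 (SE 0.07), and of Psmb10 at 5.03 (SE 0.08). Upstream, 10 of 12 genes of IFNγ signalling rose and Ifngr2 fell in WT, and 10 of 12 rose in KO, with medians of 2.05 and 2.32. Irf8 rose by 7.90 (SE 0.19), the feedback inhibitor Socs1 by 6.21 (SE 0.18) and Irf1 by 5.81 (SE 0.08) in WT. The responses of these genes in KO were 7.61, 6.28 and 5.60.

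The factors that NLRC5 docks on changed by small amounts, although many were called. Of 11 RFX, CREB/ATF, NF-Y and coactivator genes, 4 rose and 4 fell in WT and 5 rose and 1 fell in KO. Over all 16707 genes, 4154 rose and 3656 fell in WT, and 4448 rose and 4256 fell in KO. The medians of the 11 were -0.03 and 0.00. Their changes of largest size in WT were 0.62 (SE 0.07) for Kat2b, 0.49 (SE 0.06) for Nfyb, 0.41 (SE 0.07) for Atf1 and 0.28 (SE 0.08) for Rfx5. Ciita, the class II counterpart of Nlrc5, rose by 8.33 (SE 0.19) in WT and 8.02 (SE 0.19) in KO, more than Nlrc5 on the log2 scale, from a level between -0.69 and 0.64 log2 CPM in vehicle.

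Other class I and class I-like chains were mostly lower in level or not in the table, which held 15 of 32. Of these, 8 rose in WT, and 8 rose and 2 fell in KO, with medians of 0.66 and 0.92. H2-Q9 rose by 7.95 (SE 0.55) in WT and 6.06 (SE 0.55) in KO, H2-Q5 by 7.38 (SE 0.27) and 7.22 (SE 0.27), H2-T10 by 3.54 (SE 0.26) and 3.48 (SE 0.26), and H2-Q10 by 2.25 (SE 0.46) and 2.68 (SE 0.46). H2-T10 and H2-T22 are close relatives, as are the Q genes, and may share reads.

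The question of genotype is whether loss of NLRX1 alters class I levels at rest or its rise. In vehicle, 5 of the 8 heavy chains had higher means in KO at an unadjusted p below 0.05, H2-M3 had a lower mean at that level, and B2m and Nlrc5 had differences near 0, but none of the 10 passed adjustment over all genes. H2-Q4 differed by 0.65 (SE 0.14, limma, adjusted p = 0.0928), H2-K1 by 0.64 (SE 0.17, adjusted p = 0.102), H2-Q7 by 1.48 (SE 0.38, adjusted p = 0.0964), H2-Q6 by 1.40 (SE 0.57, adjusted p = 0.187) and H2-D1 by 0.25 (SE 0.10, adjusted p = 0.194). H2-M3 differed by -0.61 (SE 0.26, limma, adjusted p = 0.196). B2m differed by 0.01, with a 95% interval from -0.19 to 0.21, and Nlrc5 by -0.06, from -0.33 to 0.20. Over all genes, only Nlrx1 was called, or 0.00599%, while 21.1% had an unadjusted p below 0.05 and the median difference was 0.01, beside 0.30 for the 10.

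H2-Q4 was the only one of the 10 whose vehicle levels did not overlap between genotypes, as was so for 9.45% of all genes. The calls depended on the fit. DESeq2 on summed counts called H2-K1, H2-Q4 and H2-Q7 higher in KO vehicle (adjusted p = 0.0140, 0.00404 and 0.0218, with ranges over the alternatives of 0.00799 to 0.661, 0.00404 to 0.655 and 0.0116 to 0.655), edgeR called 0 and limma-voom 0 of the 10. Over all genes, DESeq2 called 781, edgeR 0 and limma-voom 1. Without KO litter 3, 4 were called, H2-K1, H2-Q4, H2-Q6 and H2-Q7, and without WT litter 1, H2-Q4 and H2-Q7 were. In those fits 1618 and 494 of all genes were called.

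The vehicle differences were carried unevenly by the KO litters. KO litter 4 lay above all 4 WT litters in 10 of 10 genes, litter 2 in 6, litter 1 in 5 and litter 3 in 3, while between 23.9% and 33.9% of all genes did so in a KO litter. H2-K1 lay 1.04 and 1.00 above the WT mean in litters 2 and 4, and 0.43 and 0.09 above it in litters 1 and 3. For H2-T23 the same distances were 0.65 and 0.86, and 0.14 and -0.26. B2m and Nlrc5 stayed within 0.34 of the WT mean in all KO litters.

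KO litters 2 and 4 also differed from the rest in many glial marker genes in vehicle. Mbp lay 4.66 and 4.15 below the WT mean there. Gfap, the astrocyte intermediate filament, was at 7.37 and 8.35 against 9.51 to 11.34. These genes were chosen for their low values, and the lists were mixed: of 10 astrocyte markers, 8 lay below and 2 above all WT litters in KO litter 2, and 7 lay below and 1 above in litter 4, while over all genes 34.0% and 28.0% lay below. In KO litters 1 and 3 the astrocyte markers below all WT litters were 5 and 0. The astrocyte markers summed to 5386 and 5997 CPM in KO litters 2 and 4 and to 6868 to 10848 in the other 6. Of the 8 listed oligodendrocyte lineage genes, 5 lay below all WT litters in each of KO litters 2 and 4, and 4 and 3 did in litters 1 and 3. In their sum, KO litters 2 and 4 had 921 and 908 CPM, and the other 6 had 993 to 1258. With both litters left out, an alternative chosen after seeing the data, the KO minus WT differences in vehicle became 0.26 for H2-K1, 0.51 for H2-Q4, 0.84 for H2-Q7, 0.54 for H2-Q6, 0.14 for H2-D1 and -0.06 for H2-T23, and the lowest adjusted p among the 10 was 0.655 (limma, 2 KO litters). H2-M3 became -0.89, further from 0, and B2m -0.01. Whether the make-up of these cultures has a part in the class I levels was not tested.

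**Figure D4:**
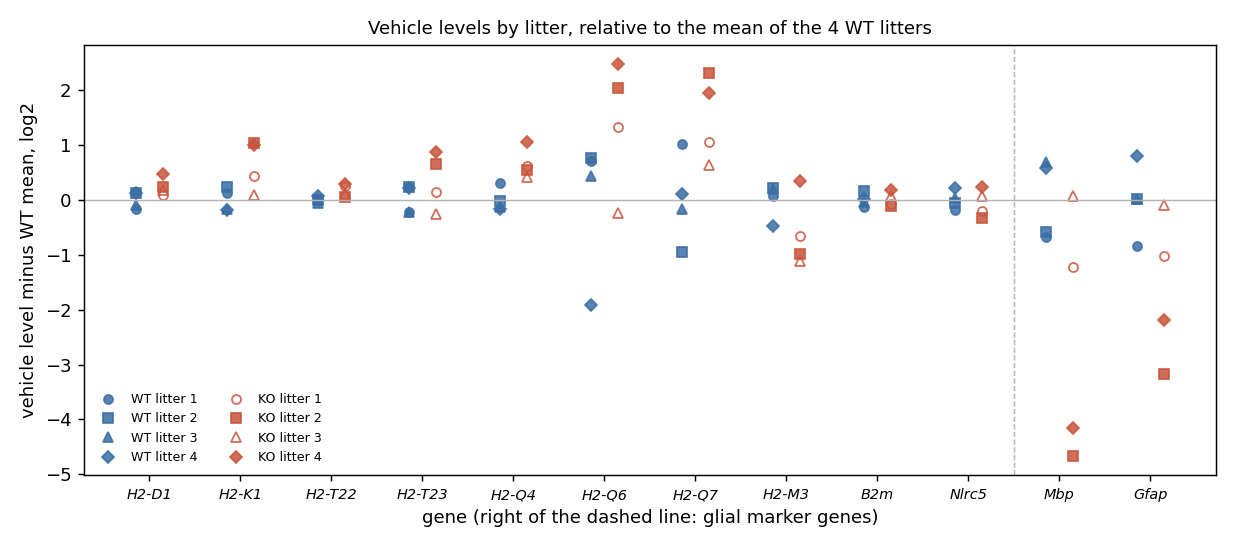
Vehicle level of each gene in each litter minus the mean of the 4 WT litters (log2), WT in blue and KO in red, with KO litters 1 and 3 open. KO litters 2 (filled squares) and 4 (filled diamonds) are highest for H2-K1, H2-T23, H2-Q6 and H2-Q7 and lowest for Mbp and Gfap, whereas B2m and Nlrc5 stay near 0.

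After LPS + IFNγ the genotypes were close in mean level, except that H2-Q6 and H2-Q7 had higher means in KO. H2-Q6 was at 7.45, 8.09, 6.94 and 8.14 in KO and between 6.69 and 7.16 in WT. H2-Q7 was at 7.54, 8.03, 7.16 and 7.98 in KO and between 7.02 and 7.48 in WT. None of the 10 genes was called, where 8.8% of all genes were, and 0 of the 10 had an unadjusted p below 0.05, where 29.6% of all genes did (limma). DESeq2, edgeR and limma-voom called 0 of the 10 as well. The treated levels of 0 of the 10 were free of overlap between genotypes, as was so for 13.3% of all genes. H2-K1 differed by -0.05, with a 95% interval from -0.42 to 0.32, H2-D1 by 0.02, from -0.20 to 0.24, B2m by 0.04, from -0.16 to 0.24, and Nlrc5 by 0.06, from -0.21 to 0.32. The widest intervals were those of H2-Q6, at 0.70, from -0.51 to 1.91, and H2-Q7, at 0.37, from -0.43 to 1.17. The fit pools the spread of vehicle and treated libraries, which differed for these genes. SDs of H2-Q6 were 1.29 in WT and 1.19 in KO vehicle, and 0.219 and 0.573 after treatment. Those of H2-Q7 were 0.816 and 0.777, and 0.211 and 0.409. Changes of the size of the treatment response are far outside the intervals above, but smaller differences are not excluded by them. The number of called genes over the whole table was unstable, with 735 higher and 736 lower in the fit used and 3 in all without KO litters 2 and 4.

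None of the 10 differences in the rise between genotypes passed adjustment. The rise was smaller in KO for 7 of the 10 genes, while the median difference over all genes was also below 0, at -0.01. Among the 7 were H2-T22, with an interval across 0, and H2-Q6, whose sign changed with log2 of CPM plus 1. Of all 16707 genes limma called 0, or 0%, with 2786 at an unadjusted p below 0.05, edgeR and limma-voom called 0, and DESeq2 called 310. At an unadjusted p below 0.05 were 5 of the heavy chains with a smaller response in KO and H2-M3 with a larger one, 6 of 10, against 16.7% of all genes. The KO response minus the WT response was -0.65 for H2-Q4 (SE 0.16, limma, adjusted p = 0.164), -0.69 for H2-K1 (SE 0.17, adjusted p = 0.164), -0.22 for H2-D1 (SE 0.07, adjusted p = 0.180), -0.46 for H2-T23 (SE 0.14, adjusted p = 0.182), -1.11 for H2-Q7 (SE 0.36, adjusted p = 0.184) and 0.61 for H2-M3 (SE 0.27, adjusted p = 0.293). For B2m it was 0.02, with a 95% interval from -0.19 to 0.23, for Nlrc5 0.12, from -0.20 to 0.44, and for H2-T22 -0.12, from -0.41 to 0.17. The median of the 10 was -0.34, against -0.01 over all genes. These differences are made from the same libraries as the 2 comparisons of genotype, so they are not separate evidence.

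DESeq2 called the interaction of H2-K1, at -0.69, and H2-Q4, at -0.65 (adjusted p = 0.0125 and 0.0126, with ranges over the alternatives of 0.0125 to 0.652 for both), among 310 genes in all. Without KO litter 3, limma called H2-K1, H2-Q4 and H2-T23 at -0.83, -0.67 and -0.58, together with 822 genes in all. Without KO litters 2 and 4 the values were -0.42 for H2-K1, -0.67 for H2-Q4, -0.30 for H2-T23, -0.24 for H2-D1 and -0.79 for H2-Q7, and the lowest adjusted p of the 10 was 0.356. The response of H2-K1 within litters was 4.40 and 4.45 in KO litters 2 and 4, 4.81 and 5.11 in KO litters 1 and 3, and 5.00, 5.27, 5.57 and 5.69 in WT.

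**Figure D5:**
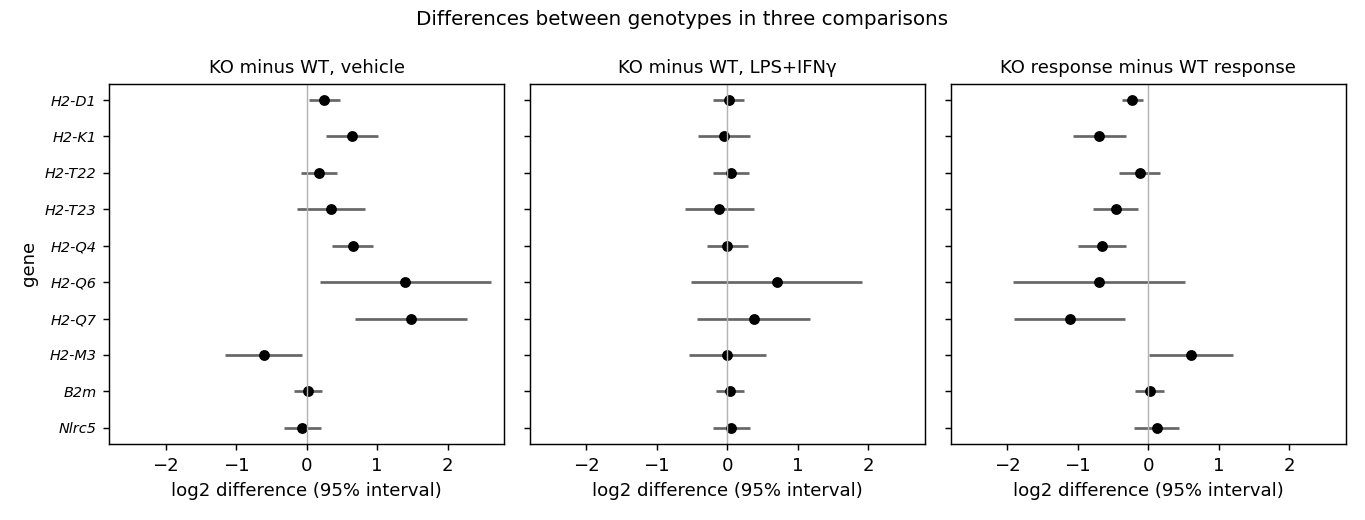
Log2 differences with 95% intervals (limma, 4 litters per genotype) for KO minus WT in vehicle, KO minus WT after LPS + IFNγ and KO response minus WT response. The heavy chains H2-K1, H2-Q4 and H2-Q7 lie above 0 in vehicle, near 0 or overlapping it after treatment and below 0 in the third panel, where none of the 10 passed adjustment over all genes, and B2m and Nlrc5 lie near 0 in all panels.

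The 10 genes were compared with all others by Pearson's r over the 16 libraries, as a description, since the libraries share treatments and litters. Over the libraries as they are, the genes most like Nlrc5 were Apol6 and Gbp6 (r = 0.999 and 0.998), with Parp14, Serpina3f and Irgm1 next. Those most like B2m were Parp14, Dtx3l, Serpina3f, Parp9 and Ube2l6 (r = 0.999 for each), and those most like H2-K1 were Psmb10, Psmb8, Ly6a, Cxcl10 and Gbp9 (r = 0.998 for Psmb10 and 0.997 for the others). In all of these genes the treated libraries lie apart from the vehicle libraries.

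With each of the 4 groups centred, only the spread between litters remained, and r among the 10 genes ran from -0.23 to 0.874. All pairs of heavy chains kept a positive r. Negative values were those of Nlrc5 with H2-K1, H2-Q6 and H2-Q7 and of B2m with H2-Q7. H2-D1 followed H2-T23 (r = 0.874) and B2m (r = 0.813), and H2-K1 followed H2-T23 (r = 0.838) and H2-Q6 (r = 0.775). Nlrc5 was at -0.23 with H2-K1 and at 0.412 with B2m, its highest value with any of the other 9. Beyond the 10 genes, H2-K1 was most like Cspg5 (r = 0.976) and Ggt5 (r = 0.940), followed by the ribosomal protein genes Rpl27a, Rps15 and Rps20, B2m most like Col5a2 (r = 0.904), followed by Parp14, Ubxn6, Chchd5 and Dnajb6, and Nlrc5 most like Ip6k2 (r = 0.889), followed by Clk3, Ankrd13b, Nsun4 and Ikbkb.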

How the data were processed

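Poly-A RNA of 16 astrocyte libraries was sequenced without strand information. The authors quantified reads with Salmon 1.7.0 against RefSeq transcripts of GRCm39 and deposited, per transcript, the expected count, the TPM and the effective length in bases (a unit classed as other). From length-scaled counts (tximport), filtered for low counts, the authors made CPM with TMM-scaled library sizes, a signal whose column sums differ between libraries, and deposited it with its log2, which holds a small prior count. TMM sets most genes to no change, so all responses are relative to that.

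Here limma 3.58.1 in R 4.3.3 was fitted to the deposited log2 CPM of all 16707 genes (empirical Bayes with a trend, Benjamini-Hochberg adjustment, threshold 0.05), because some transcripts could not be paired with a symbol when expected counts were summed. For the 10 genes the summed counts amounted to between 96.1% and 104% of the reads behind the deposited CPM in treated libraries. Responses and their interaction with genotype were fitted with a term for each litter, nested in genotype. KO was set against WT, within a treatment, in a second model with the 4 groups and no litter terms, since a litter has 1 genotype. There each gene had a single spread, pooled over vehicle and treated libraries. Where vehicle levels vary more, vehicle standard errors are too small and treated ones too large. Both libraries of a litter come from the same pups. Checked on values centred by group, their r across genes was between 0.073 and 0.355, with a median of 0.2185. For other litters of the genotype it was between -0.353 and 0.154, with a median of -0.052, so the ranges overlapped. Alternatives used edgeR 4.0.16, DESeq2 1.42.0 (counts rounded to whole numbers) and limma-voom on summed counts, other scalings, pseudocounts and filters, and left out litters. The fits were tested on simulated data. TPM served for levels between genes and was summed per symbol.

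The genes, lists and tests were chosen with earlier results of these data known. Named are the 10 genes, Nlrx1, up to 4 genes per list by size of the WT response, and the 5 genes most like Nlrc5, H2-K1 and B2m by r. Mbp, Gfap and Ifngr2 were named after their values were seen. Promoters (RefSeq, GRCm38.p6) were placed on GRCm39 by exact match in chromosomes 2 and 17, and the motif letters were chosen with the promoters in view. Gene positions are those of GENCODE M39. Intervals for reads cover counting error only, and the spread between litters is in the standard errors. Some named items are not reported here. All 16 libraries were mapped to groups by their labels.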

Additional observations from a re-analysis of the deposited data

Results flagged for a closer look

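In each of the 4 groups and in the responses of both genotypes, the 10 genes were checked for a litter far from the other 3 (Dixon's ratio at the 95% level, which chance exceeds in about 1 of 20 groups). Of 60 checks 3 stood out, all in WT litter 4. H2-Q6 was at -3.17 log2 CPM in the vehicle library of that litter, which rests on 2 read pairs, while the other 3 litters lay between -0.81 and -0.48. The response of H2-Q6 there was 10.28, against 7.39 to 7.64 in the other WT litters. H2-M3 responded by 6.18 in that litter, against 5.37 to 5.49 in the others, from a vehicle level of -0.35, the lowest of the 4. No cause of these values was tested.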

How the results depend on the processing

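All 10 genes were called higher in both genotypes under each of the 19 alternatives of a response. Without the replicate block (litters as blocks) they remained 10 of 10 in WT and KO, with 5954 and 6949 of all genes called. In the interaction DESeq2 on summed counts called 2 of the 10 lower and 310 genes, edgeR without a count filter called 1 gene, and leaving out single litters gave 0 to 3 of the 10 lower and 0 to 822 genes. Without the replicate block the interaction gave 0 genes.

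For KO against WT in vehicle, DESeq2 called 3 of the 10 higher, and single litters left out gave 0 to 4, with 0 to 1618 genes in all against 1. The genes called in all were 781 with DESeq2, 2 with library medians set equal, 2 without KO litters 2 and 4, and 0 with edgeR, with CPM of at least 1 in 4 libraries, with no trend of the prior variance and with only the 8 vehicle libraries. After LPS + IFNγ the 1471 genes called became 808 with edgeR, 2502 with DESeq2, 387 with limma-voom, 552 with edgeR without a count filter, 2 with no trend, 1 with only the 8 treated libraries, 3 without KO litters 2 and 4, and 1 to 3868 with single litters left out. A block on the replicate number across genotypes gave 4 of the 10 higher and 591 genes in vehicle, and 0 of the 10 and 2815 genes after treatment. The numbers name litters only, and libraries of both genotypes with the same number had a median r of -0.0065. Where 1 setting moved a count, the cause was not tested.

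Signs of the 10 genes changed in 45 of 990 values, and none of these values passed adjustment before or after. In the interaction H2-Q6 went from -0.70 to 0.10 with log2 of CPM plus 1, and B2m became -0.030 without KO litters 2 and 4 and ran from -0.062 to 0.071 with single litters left out. In vehicle, without KO litters 2 and 4, H2-T23 went from 0.35 to -0.062 and B2m -0.0067. B2m there became -0.0016 with CPM divided by its sum and -0.011 with equal medians. Single litters left out gave B2m -0.040 to 0.069 and Nlrc5 -0.16 to 0.028. After treatment, CPM divided by its sum gave H2-D1 -0.0013 and H2-Q4 -0.023, H2-Q4 became -0.011 with edgeR, -0.0031 with DESeq2, -0.013 with limma-voom, -0.014 with equal medians and -0.013 with edgeR without a filter, and H2-M3 0.0001 with log2 of CPM plus 1. Without KO litters 2 and 4 the treated differences were -0.11 for H2-D1, -0.17 for H2-T22, -0.16 for H2-Q4, -0.037 for B2m and -0.028 for Nlrc5. Single litters left out gave H2-D1 -0.049 to 0.075, H2-T22 -0.033 to 0.14, H2-Q4 -0.067 to 0.063, H2-M3 -0.095 to 0.077, B2m -0.023 to 0.089 and Nlrc5 -0.005 to 0.13. Depth limits H2-Q6, H2-Q7 and H2-M3 in vehicle most, with as few as 2, 18 and 12 read pairs.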
